A study of Oryza sativa with 6 samples.

Results

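Aux/IAA genes encode short-lived nuclear repressors of the auxin response, and 5 of them in rice are described here: IAA3, IAA6, IAA8, IAA17 and IAA30. They were taken by their probe set identifiers, 1 probe set for each gene, out of 57258 probe sets and of 17905 genes that the platform annotation pairs with a probe set alone. The family is larger: 28 genes carry an Aux/IAA name in the gene table used, and 26 of these, the 5 included, have a probe set. The study compared whole seedlings of Oryza sativa of the japonica type, 3 weeks old and grown in artificial soil, with 3 wild type samples and 3 of the line Epi-df, each group described as biological replicates. The dwarf stature of Epi-df is known to go with an epigenetic allele at FIE1, which encodes a Polycomb group protein, part of a complex that methylates histones and so silences genes. No probe set could be named FIE1 with the tables used, so the labels of the Epi-df arrays were not checked on that gene. The labels describe 1 mutant line and do not say how many plants went into a sample, so the p-values measure the spread between these samples.

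An Aux/IAA protein holds auxin response factors (ARF proteins) at their target genes and recruits co-repressors of the TOPLESS family there. When auxin rises, receptors of the TIR1 and AFB family bind the repressor and mark it for destruction by the proteasome, and the target genes are freed. Many Aux/IAA genes are themselves induced by auxin, so that the pathway makes its own brake, and their transcripts are often used as a readout of auxin response in seedlings. Transcript level is what an array measures; the stability of the proteins, on which auxin acts directly, was not measured. A lower signal from a whole seedling can come from fewer cells of a type or from less RNA per cell, and these cannot be told apart.

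The arrays were alike in level, with median intensities of 108.1 to 114.5. Intensities are MAS5 probe set values on a linear scale. They compare 1 probe set across arrays and do not order the genes by transcript abundance. All 3 leaf markers measured and 4 of 5 root markers were bright enough to be tested, while the root marker LSI2 (22.5 ± 1.6 in wild type, 24.3 ± 3.10 in Epi-df) and 3 panicle and anther markers, at 48.9 or below on every array, were not.

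IAA6 differed most between the lines among the 5. Its intensity was 1809, 1633 and 1441 in wild type against 1083, 693 and 951 in Epi-df. Every Epi-df array lay below every wild type array, and the lowest wild type value was 1.33 times the highest Epi-df value. The wild type mean was 1628 ± 184 and the Epi-df mean 909 ± 199 (± SD, n = 3 in each group), 44.2% lower. The log2 change, which is Epi-df minus wild type of log2(intensity + 16) here and below, was -0.85 ± 0.17 (SE), with a 95% interval of -1.24 to -0.46. It missed both thresholds of the study, an adjusted p under 0.05 and a 2-fold change (limma adjusted p = 0.0579, two-sided, Benjamini-Hochberg over all tested probe sets). With each array weighted by its own spread, the adjusted p was 0.0421 at a log2 change of -0.83, which still is less than 2-fold. The change was larger in size than that of 97.9% of all tested probe sets.

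IAA8 had the next larger difference, at a much dimmer probe set. It read 312, 306 and 355 in wild type and 257, 187 and 218 in Epi-df. The groups again did not overlap, and the lowest wild type value was 1.19 times the highest Epi-df value. The means were 324 ± 26.6 and 221 ± 35.4, 32.0% lower in Epi-df, with a log2 change of -0.53 ± 0.13 (95% interval -0.83 to -0.24) that did not pass the test (limma adjusted p = 0.0932). In both IAA6 and IAA8 the lowest of the 6 arrays was Epi-df replicate 2 and the highest Epi-df array was replicate 1. The actin 3'/5' signal ratio, a common gauge of RNA integrity, was 7.72 in Epi-df replicate 2 and 13.8 in replicate 1, the lowest and the highest of all arrays, and 9.20 to 10.7 in the others. The same ratio for GAPDH was 2.11, 1.63 and 1.68 in Epi-df replicates 1, 2 and 3 and 1.96 to 2.33 in wild type. The part of these ratios in the result was not tested. Leaving out Epi-df replicate 2 gave log2 changes of -0.67 for IAA6 and -0.43 for IAA8, and leaving out Epi-df replicate 1 gave -0.98 and -0.64. A second probe set for IAA8 had means of 57.9 ± 3.96 (wild type) and 52.3 ± 1.82 (Epi-df), under the intensity of 81.1 below which probe sets were not tested.

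IAA3 and IAA17 have bright probe sets and differed by little. A stabilised form of the IAA3 protein is known to make rice plants insensitive to auxin. IAA3 read 7105, 7245 and 7798 in wild type and 6782, 6413 and 6282 in Epi-df. The groups did not overlap, but the gap was small, with the lowest wild type value at 1.05 times the highest Epi-df value. Its log2 change was -0.18 ± 0.07 (95% interval -0.34 to -0.03), 12.1% lower in Epi-df, and did not pass (limma adjusted p = 0.254). A second, dim probe set for IAA3 gave 130 ± 7.12 and 118 ± 12.1, with groups that overlapped (log2 change -0.13 ± 0.09, limma adjusted p = 0.628).

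IAA17 was measured by a probe set with the suffix _s_at, which Affymetrix gives to probe sets shared by several transcripts. It read 12282, 12819 and 13282 in wild type and 11722, 11650 and 11744 in Epi-df. The Epi-df arrays lay within 1.01 times of each other and below all wild type arrays, which spanned 1.08 times. The log2 change was -0.13 ± 0.06 (95% interval -0.26 to 0.003), 8.51% lower in Epi-df (limma adjusted p = 0.359).

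IAA30 showed no separation of the lines. It read 3091, 2859 and 3148 in wild type and 3022, 3413 and 2871 in Epi-df, so the groups overlapped, with the highest value in Epi-df replicate 2, the array in which IAA6 and IAA8 were lowest. The means were 3033 ± 153 and 3102 ± 280. The log2 change of 0.03 ± 0.09 had a 95% interval of -0.17 to 0.23, and the limma adjusted p was 0.930. Its sign depended on single arrays: the change was -0.04 when Epi-df replicate 2 was left out and -0.01 when wild type replicate 2 was.

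**Figure D1:**
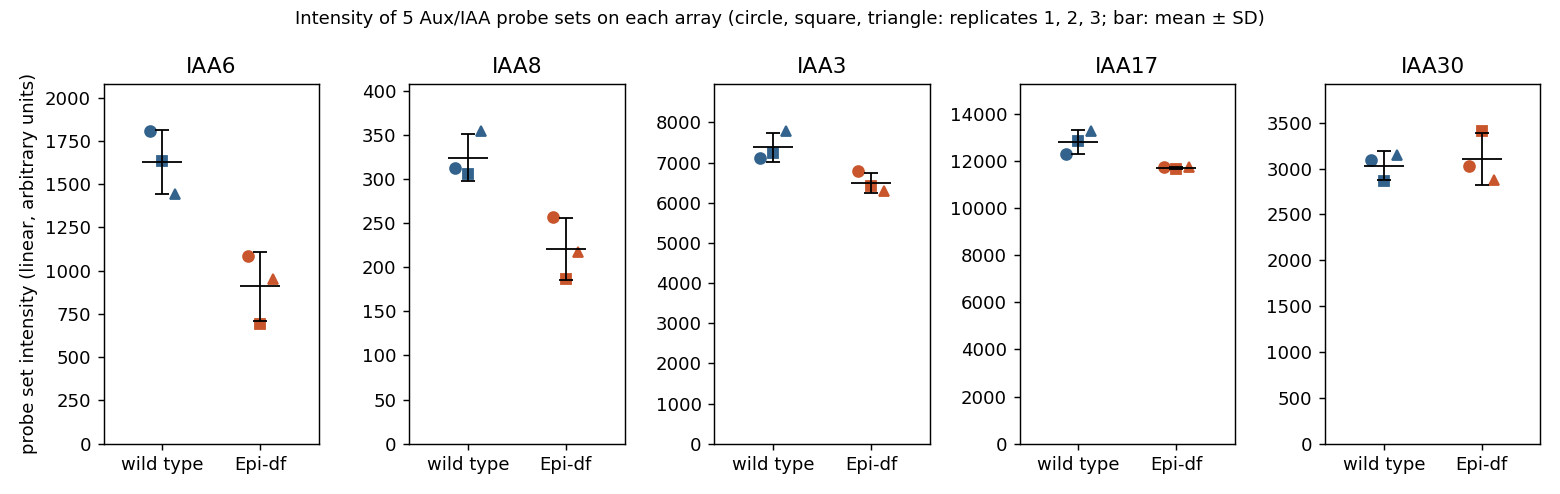
Intensity (linear, arbitrary units, each panel from 0) of the 5 Aux/IAA probe sets in the wild type and Epi-df arrays; circles, squares and triangles are replicates 1, 2 and 3, and bars show the mean ± SD of 3 arrays. IAA6 falls into separate ranges of 1441 to 1809 in wild type and 693 to 1083 in Epi-df, while the ranges of IAA30 overlap.

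By the study's thresholds 0 of the 5 genes were called, and 0 had a limma adjusted p under 0.05 at any fold. Of all 34355 tested probe sets, 0.614% were called, 0.437% as lower and 0.178% as higher in Epi-df, and 1.79% had an adjusted p under 0.05. At an unadjusted p under 0.05 stood 3 of the 5 (IAA3, IAA6 and IAA8), against 14.4% of all tested probe sets. In 4 of the 5 all Epi-df arrays lay below all wild type arrays, which held for 9.79% of all tested probe sets. The reverse order, all Epi-df arrays above all wild type arrays, held for 9.82% of the tested probe sets and for 0 of the 5, and either order for 19.6%. The median log2 change of the 5 was -0.18, against 0.01 over all tested probe sets. These counts describe 5 genes and carry no test of their own. The genes were chosen with earlier results of these data known, and the part of that choice in the counts was not tested. With 1 array left out the log2 changes of IAA3, IAA6, IAA8 and IAA17 stayed below 0 in every case, between -0.98 and -0.67 for IAA6, -0.64 and -0.43 for IAA8, -0.22 and -0.14 for IAA3 and -0.16 and -0.10 for IAA17. The highest limma adjusted p of IAA6 in these fits was 0.217, without wild type replicate 1.

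**Figure D2:**
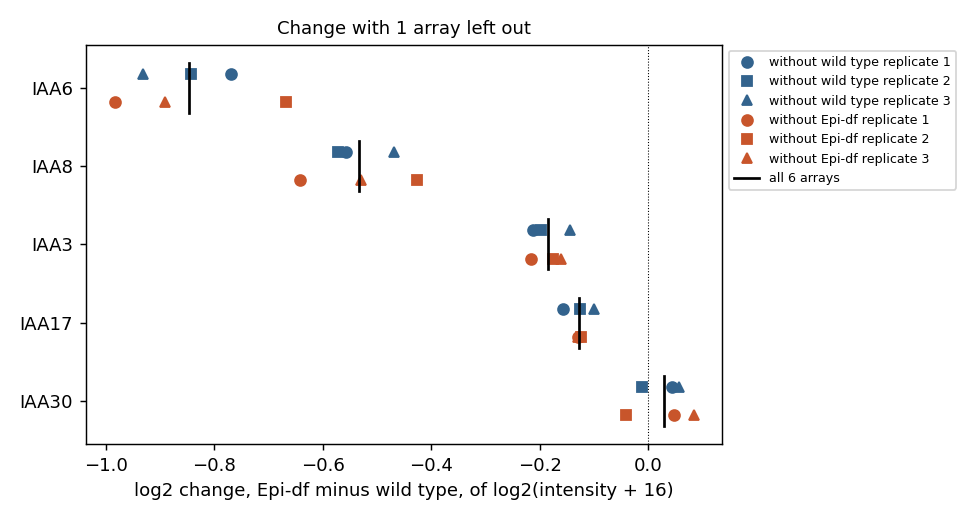
Log2 change (Epi-df minus wild type, of log2(intensity + 16)) of the 5 genes with each of the 6 arrays left out in turn; black lines give the value with all arrays. IAA6 lies between -0.98 and -0.67, and IAA30 between -0.04 and 0.08, on both sides of 0.

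Of the 26 Aux/IAA genes with a probe set, 23 were bright enough to be tested. Of these, 0 were called, against 0.614% of all tested probe sets. At an unadjusted p under 0.05 (limma) stood 8 of the 23, against 14.4% of all tested probe sets. Most of the 23 were lower in Epi-df, 16 against 7 higher, with a median log2 change of -0.08. Over all tested probe sets 15834 were lower and 18521 higher, with a median of 0.01. Among the 18 tested genes outside the 5, 12 were lower and 6 higher, with a median of -0.05. The groups did not overlap in 5 of these 18, against 19.6% of all tested probe sets. In 3 of them Epi-df was lower: IAA1 (log2 change -0.30 ± 0.11), IAA12 (-0.45 ± 0.17) and IAA31 (-0.27 ± 0.11), with limma adjusted p of 0.274, 0.268 and 0.344. The change of IAA12 was -0.27 without wild type replicate 3, and that of IAA31 was -0.16 without Epi-df replicate 3. In the other 2 Epi-df was higher: IAA7 (0.44 ± 0.12) and IAA23 (0.28 ± 0.11), with limma adjusted p of 0.124 and 0.279.

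IAA2 had the second largest difference of the family, with a log2 change of -0.65 ± 0.28. Its values were 734, 741 and 368 in wild type and 429, 410 and 282 in Epi-df. Wild type replicate 3 stood within the range of the Epi-df arrays, and without this array the change was -0.97 (limma adjusted p = 0.0775), against 0.353 with all arrays. It was the lowest array of wild type, so leaving it out could only widen the change. IAA31, the immediate neighbour of IAA30 in the gene table, read 839, 985 and 878 in wild type and 808, 792 and 640.1 in Epi-df. IAA30 and IAA31 thus differ in whether their groups overlap, and the difference between their changes was not tested.

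The remaining tested Aux/IAA genes had small differences with overlapping groups. Bright ones among them were IAA5 (-0.02 ± 0.08), IAA10 (0.03 ± 0.06), IAA13 (-0.11 ± 0.08), IAA15 (-0.16 ± 0.09) and IAA21 (-0.03 ± 0.07). IAA4, IAA9, IAA14, IAA18, IAA19, IAA24 and IAA25 lay between -0.10 (IAA14) and 0.18 (IAA24), and their limma adjusted p were 0.648 or higher. IAA16, IAA20 and IAA26 were too dim to be tested, at wild type means of 79.1, 24.8 and 48.8. At this low level IAA20 did not overlap between the lines, with a mean of 24.8 ± 1.97 in wild type against 35.8 ± 6.43 in Epi-df. IAA11 and IAA29 had no probe set paired with them alone.

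**Figure D3:**
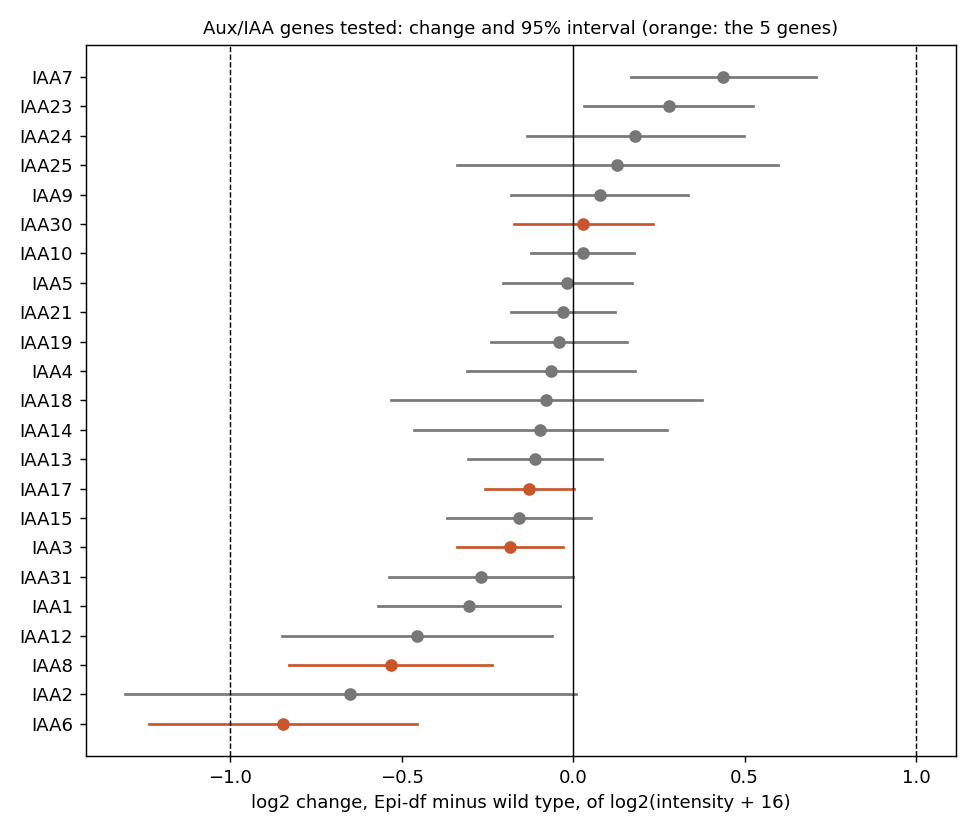
Log2 change (Epi-df minus wild type, of log2(intensity + 16)) and its 95% interval for the 23 tested Aux/IAA genes, ordered by change, with IAA3, IAA6, IAA8, IAA17 and IAA30 in orange and dashed lines at the 2-fold threshold. IAA6 is the lowest at -0.85 and IAA7 the highest at 0.44, and no point lies past a dashed line.

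Genes that act with the Aux/IAA proteins were looked at by their step in the pathway. For auxin synthesis, 2 genes were measured. FIB, which encodes an aminotransferase that makes the auxin precursor from tryptophan, went from 532 ± 50.5 to 355 ± 52.5, a log2 change of -0.57 ± 0.12 with groups that did not overlap (limma adjusted p = 0.0749). When Epi-df replicate 1 was left out, the change of FIB was -0.68 (limma adjusted p = 0.0474), still under 2-fold. That array was the highest of Epi-df for FIB, so leaving it out could only widen the change. Over the fits with 1 array left out, the limma adjusted p of FIB ran from 0.0474 to 0.214. YUCCA1, of the enzymes of the next step, was dim and changed by 0.09 ± 0.07, also without overlap but with Epi-df higher. Groups did not overlap in 19.6% of all tested probe sets. Among 3 tested genes of auxin transport 1 was called, against 0.614% of all tested probe sets. This gene, PIN5A, of a group of PIN proteins known from the endoplasmic reticulum, fell from 1220 ± 22.2 to 280.1 ± 31.9 (log2 change -2.07 ± 0.10, limma adjusted p = 0.000364). Groups did not overlap in 2 of these 3, PIN5A and 1 gene that was higher in Epi-df.

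Of the proteins that Aux/IAA repressors bind, 16 ARF genes and 2 co-repressor genes were tested. Of these, 0 were called, against 0.614% of all tested probe sets. At an unadjusted p under 0.05 (limma) stood 2 of the 16 ARF genes, against 14.4% of all tested probe sets. Among the ARF genes 3 had groups that did not overlap, all lower in Epi-df, where 19.6% of all tested probe sets had such groups in either order and 9.79% in this one. For ARF9 the log2 change was -0.55 ± 0.15, at a limma adjusted p of 0.133, and for the brightest, ARF2 (LOC4326957), it was -0.04 ± 0.10. The co-repressor genes TPR2 and TPR3, of the TOPLESS family, had changes of -0.06 ± 0.07 and 0.03 ± 0.08. No receptor gene of the TIR1 and AFB family was named in the tables used.

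Genes named GH3 or SAUR, families with members that auxin is known to induce, went in both directions. They were taken by name and not by a response to auxin. Of 9 tested, 5 were higher and 4 lower in Epi-df, and 0 were called, against 0.614% of all tested probe sets. At an unadjusted p under 0.05 (limma) stood 4 of the 9, against 14.4% of all tested probe sets. They were GH3.1 and GH3.5, given below, GH3.2 (log2 change -0.43 ± 0.11) and GH3.8 (0.40 ± 0.11). The limma adjusted p of GH3.2 and GH3.8 were 0.114 and 0.121, and the groups of neither overlapped. GH3.2 had an Epi-df mean of 72.9, under the intensity of 81.1 below which probe sets were not tested, so it was tested only through its wild type values. SAUR39, of the small auxin-up RNAs, had a log2 change of -0.20 ± 0.18, which lay between -0.36 (Epi-df replicate 3 left out) and -0.06 (wild type replicate 3 left out) in the fits with 1 array fewer. GH3.5, also named JAR1 and known for joining jasmonate rather than auxin to an amino acid, was at -0.48 ± 0.12 (limma adjusted p = 0.104). GH3.1, of the enzymes that join auxin to amino acids, was the 1 gene past 2-fold, from 63.1 ± 27 to 161 ± 54.4 (log2 change 1.17 ± 0.27, limma adjusted p = 0.0861). Its wild type mean was under the intensity of 81.1 below which probe sets were not tested, so it was tested only through its higher Epi-df values. It was called without wild type replicate 3, where its change was 1.44 (limma adjusted p = 0.0480). That array was the highest of wild type, so leaving it out could only widen the change.

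**Figure D4:**
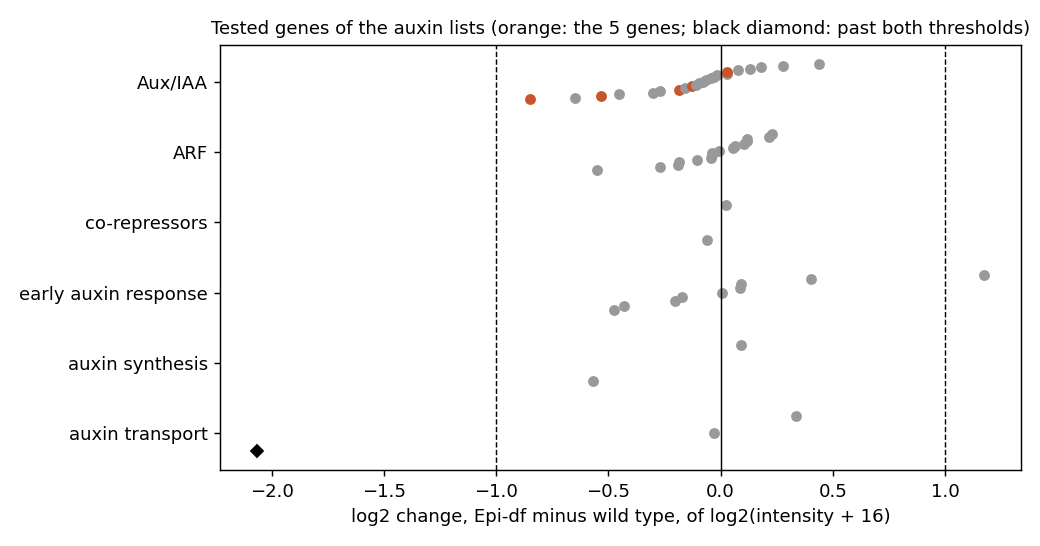
Log2 change (Epi-df minus wild type, of log2(intensity + 16)) of the tested genes of 6 auxin lists, 1 point a gene, with the 5 Aux/IAA genes in orange and dashed lines at the 2-fold threshold. PIN5A, the black diamond at -2.07, is the 1 gene past both thresholds.

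The genes whose values ran most like those of each Aux/IAA gene over the 6 arrays were sought among 2697 tested probe sets of genes with a name, as a description with no test. Pearson's r of the log2 values is given, and part of it is the difference between the lines that both genes share. For IAA6 they were the protein phosphatase gene PP2C28 (r = 0.997), the acyltransferase gene HCT2 (0.989) and the small heat shock protein gene HSP17.9B (0.988), and 35 probe sets had an r over 0.95. HCT2 had a log2 change of -0.85 ± 0.14, and PP2C28 one of -0.52 ± 0.12 (limma adjusted p = 0.0340 and 0.0808). For IAA8 they were SAP2 (0.988), a gene of the stress-associated zinc finger proteins, the glutathione transferase gene GST-I (0.983) and the allantoinase gene ALN (0.977). Both GST-I (log2 change -1.04 ± 0.18) and ALN (-1.22 ± 0.23) were called, with limma adjusted p of 0.0337 and 0.0499, against 0.614% of all tested probe sets. The groups of IAA8 do not overlap, so choosing genes by likeness to it favours genes that differ between the lines.

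IAA3 ran most like FIB (r = 0.986), the glutamine synthetase gene GLN1-2 (0.979) and GST-I (0.977). For IAA17 the genes were RPT5a (0.994), of the proteasome that also destroys Aux/IAA proteins, GH3.2 (0.983), of the enzymes that join auxin to amino acids, and the bZIP gene bZIP37 (0.982). IAA30 had the weakest likenesses, to the circadian clock gene PRR95 (0.960), a gene named prolamin (0.955) and a gene named MCS (0.948). PRR95, like IAA30, did not separate the lines, with a log2 change of 0.003 ± 0.10.

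The levels of the tissue markers were set beside these values. The summed intensity of 3 leaf markers spanned 45599 to 46731 over wild type and 49296 to 55934 over Epi-df, without overlap, with CAB2R at a log2 change of 0.28 ± 0.06 and LHCP at 0.57 ± 0.13 (limma adjusted p = 0.0749 and 0.0873). A second, dimmer probe set for CAB2R had a change of 0.64 ± 0.11 (limma adjusted p = 0.0308), under 2-fold. RBCS, near the top of the scale of each array, was at -0.02 ± 0.05. The sum of 5 root markers was 801 to 905.5 in wild type and 905.4 to 1073 in Epi-df, and that of 6 markers of meristem and dividing tissue was 3151 to 3702 and 2827 to 4790, with overlap in both. The root sum hides opposite directions, as 2 of the 4 tested root markers were higher in Epi-df and 2 lower. LSI1 was higher without overlap (log2 change 0.44 ± 0.14), and NRT2.3 lower with overlap (-0.60 ± 0.25), with limma adjusted p of 0.184 and 0.328. All 5 tested markers of meristem and dividing tissue had a higher mean in Epi-df, but the groups overlapped in all of them except OSH71. For CDKB2-1 (462), PCNA (1512) and the CYCB1-1 gene LOC4327547 (521), Epi-df replicate 3 lay below every wild type array. The widest difference among the tested ones was in OSH71, a KNOX homeobox gene of meristems, which is dim and adds little to their sum. OSH71 was at 48.2 ± 36.7 in wild type against 188 ± 49.96 in Epi-df (log2 change 1.78 ± 0.36, limma adjusted p = 0.0614). All its Epi-df arrays lay above all wild type arrays, which held for 9.82% of all tested probe sets. With a wild type mean under the cut of 81.1, it was tested only through its higher Epi-df values. OSH1, in the sum but too dim to be tested, read 268 in Epi-df replicate 1 and 13.55 to 30.18 on the other arrays. A second probe set for OSH1 read 225 in Epi-df replicate 1 and 2.57 to 19.55 on the others. None of the markers was called, against 0.614% of all tested probe sets. The part of the markers in the values of the Aux/IAA genes was not tested.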

How the data were processed

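RNA of 6 seedling samples was measured on Affymetrix rice genome arrays. The authors deposited 1 table of probe set intensities on a linear scale. Per the submitters' processing notes it was made with MAS5, whose version and scaling target are not given in the sources used here. Control probe sets (123) were removed. Array medians lay within 0.083 of each other in log2 units, and the intensities were not scaled again. The titles of the samples give the groups and replicate numbers.

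The test was limma (version 3.58.1, R 4.3.3) on log2(intensity + 16), with an intensity trend in eBayes, two-sided and with no replicate block, over the 34355 probe sets whose mean reached the 40th percentile (81.1), with Benjamini-Hochberg adjustment over all of them. Calls needed an adjusted p under 0.05 together with a 2-fold change, as in the series design. Having 3 arrays in a group limits how precise any value is.

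Of 57258 probe sets, 22436 are paired with 1 gene by the platform annotation, 95 are paired with several, and the other 34727 are unnamed here. All 17905 genes matched a RefSeq gene table (assembly ASM3414082v1), used for names and gene order. Where a gene carried more than 1 Aux/IAA name, a name that another gene holds as its only one was dropped. Genes outside the 5 were represented by their brightest probe set, and LAX1 and LAX2 (panicle genes known under the same letters as auxin carriers) and ASP1 (an aspartic protease gene by its other name in the table) were left out. The text names the 5 genes, every other Aux/IAA gene measured, up to 4 called genes of each other list or, with none called, the 2 brightest, and the 3 named genes most like each of the 5. GH3.1, GH3.8 and the change of GH3.2 were added after their values were seen. Protein and promoter sequences were not used here. Genes and lists were chosen with earlier results of these data known. Alternatives were other pseudocounts, filters, scalings, spread models, array weights, a replicate block, other fold thresholds, other probe sets and leaving out each array.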

Additional observations from a re-analysis of the deposited data

How the results depend on the processing

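The 5 Aux/IAA genes were called in 0 cases under every alternative run. Of 85 log2 changes recomputed for them, 81 kept their sign and their side of an adjusted p of 0.05. IAA6 passed the adjusted p, short of 2-fold, in 2 cases: array weights (above) and the replicate block (-0.85, limma adjusted p = 0.0313). The replicate numbers are not said to pair the arrays. Deviations from the group means correlated at 0.13, 0.33 and -0.06 between same-numbered arrays. Wild type replicate 1 correlated almost equally with Epi-df replicates 1 and 3 (0.129 and 0.123). Wild type replicate 2 correlated best with its own number, and wild type replicate 3 with Epi-df replicate 1 (0.128). These few correlations cannot decide whether the arrays were paired. The block raised the count of changed probe sets from 211 to 324. IAA30 changed sign in 2 cases, with a range of -0.040 to 0.084 when 1 array was left out. Of 467 values for the other named auxin genes, 451 stayed, 12 changed sign and 4 passed the adjusted p: ARF9 and IAA2 under the replicate block (limma adjusted p = 0.0293 and 0.0480), and FIB and GH3.1 with 1 array left out (above). The sign changes came with 1 array left out, with ranges of -0.13 to 0.022 for ARF2 (LOC4326957), -0.27 to 0.047 for IAA14, -0.19 to 0.14 for IAA18, -0.064 to 0.012 for IAA21, -0.088 to 0.24 for IAA25, -0.17 to 0.011 for IAA4, -0.077 to 0.041 for IAA5 and -0.013 to 0.084 for TPR3. The cause was not tested. Called genes of the other auxin lists numbered 1 (PIN5A), and 1 to 2 with 1 array left out, the second being GH3.1. Over all probe sets the count was 111 to 260 with 1 array left out (111 without wild type replicate 1 and 117 without replicate 2), 614 with no fold threshold and 494 at 1.5-fold. Dim signal limits IAA8 and GH3.1, whose folds the pseudocount understates.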
